A study of Mus musculus with 6 samples.

Results

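Matrix metalloproteinases (Mmp genes), the tissue inhibitors that bind them (Timp genes) and the related proteases with thrombospondin repeats (Adamts genes) were followed in mouse tongue. Members were all probes whose accession named a gene of these 3 families, whatever its signal. They came to 45 genes of the 21368 gene symbols on the array (22 Mmp, 4 Timp and 19 Adamts genes), read by 59 of 55681 probes. RNA from whole tongue of 6 mice was hybridised to single-colour Agilent arrays, 1 array a mouse. There were 3 mice given doxycycline (DOX), an antibiotic, for 2 weeks, and 3 mice left untreated (no DOX). All 6 mice had a C57Bl6 background and the iDek genotype, a DOX-inducible transgene for the chromatin protein Dek that is labelled both ubiquitous and squamous cell-specific. The sample labels used here give neither age nor sex, and they name no carcinogen, although the title of the series mentions one. Mice that lack the transgene and received DOX are not among the animals analysed, and DOX exposure and Dek induction therefore cannot be told apart.

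Metalloproteinases are zinc enzymes that are made as inactive precursors and cut collagens, proteoglycans and other matrix proteins once activated. TIMPs block the active site, and Timp3 also restrains several ADAMTS enzymes. These enzymes take part in tongue in wound repair, muscle remodelling and tumour invasion. DOX itself is known to inhibit the activity of metalloproteinases, which an array of RNA does not measure.

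All 6 skeletal muscle markers and all 6 stratified epithelium markers were well above background on all 6 arrays. The members' levels are given as log2 of the background-subtracted signal minus the 75th percentile of that array, so that 0 is the array's own 75th percentile, and levels are compared only within a probe. Between 56.0% and 58.3% of probes were well above background, and no spot was saturated. The lowest signal well above background lay between -4.88 and -4.55 on this scale. For Dek, the gene that the transgene is designed to raise, no change passed the test by its 1 probe (log2 0.17 ± 0.11, SE, n = 3 and 3; limma, adjusted p = 0.456; 95% interval of the fold change 0.938 to 1.34). Its levels were 2.41, 2.41 and 2.27 in DOX tongues and 2.30, 2.10 and 2.20 in no DOX tongues. The exact two-sided permutation test over 20 assignments gave p = 0.2 for Dek, where 0.1 is the smallest this design allows. Which stretch of Dek the probe reads is unknown here, and the value therefore does not check the labels.

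A row of 10 Mmp genes lies on chromosome 9, with no other protein-coding gene between them in the RefSeq order, and 9 of them had a named probe. Mmp3, which encodes stromelysin-1, was well above background on all 6 arrays. The other 8 measured genes of this row (Mmp13, Mmp12, Mmp1b, Mmp1a, Mmp10, Mmp8, Mmp20 and Mmp7) were well above background on none. Outside the row, 20 of the 36 members were tested and 11 were above background on no array. The promoters of the row are shown because the genes share a sequence feature that the choice of members did not use. The motif TGANTCA, the binding motif of the AP-1 factors Fos and Jun, reads alike on both strands. It was searched in RefSeq windows of 300 bases, 250 before to 50 after a gene's start (GRCm38.p6). At least 1 window of 8 of the 10 genes held it, and none of the 23 windows of the 22 members elsewhere did. Among all promoter windows 7.81% held it, and among all genes 8.97%. Of the 45 members, 31 had a window. Below are the 100 bases before and 20 bases from the start, with the motif in capitals, for Mmp3, 4 neighbours that hold the motif and Mmp8, which does not.
Mmp3 (chr9:7445722-7445841, + strand): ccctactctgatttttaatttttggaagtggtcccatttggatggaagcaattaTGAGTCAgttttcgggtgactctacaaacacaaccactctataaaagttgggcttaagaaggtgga
Mmp13 (chr9:7272414-7272533, + strand): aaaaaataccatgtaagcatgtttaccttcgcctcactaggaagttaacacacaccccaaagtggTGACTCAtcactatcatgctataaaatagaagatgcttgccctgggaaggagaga
Mmp10 (chr9:7502242-7502361, + strand): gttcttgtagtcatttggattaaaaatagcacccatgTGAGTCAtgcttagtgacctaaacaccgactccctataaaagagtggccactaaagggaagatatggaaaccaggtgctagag
Mmp1a (chr9:7464041-7464160, + strand): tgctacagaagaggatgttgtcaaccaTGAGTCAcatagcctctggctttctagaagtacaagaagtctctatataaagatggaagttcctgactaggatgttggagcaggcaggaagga
Mmp1b (chr9:7388007-7388126, - strand): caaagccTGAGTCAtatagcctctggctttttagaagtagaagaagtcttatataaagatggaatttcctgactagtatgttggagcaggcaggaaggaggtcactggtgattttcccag
Mmp8 (chr9:7558329-7558448, + strand): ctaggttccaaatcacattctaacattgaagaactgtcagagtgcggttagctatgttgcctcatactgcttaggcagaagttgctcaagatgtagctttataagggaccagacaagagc

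The first base of the motif stood at -46 from the start of Mmp3, at -35 for Mmp13, at -63 for Mmp10, at -73 for Mmp1a and at -93 for Mmp1b. Mmp12 (-44), Mmp20 (-95) and Mmp7 (-63) also held it, and Mmp12 and Mmp7 each had a further window without it. A match is a description of these letters and not a site of binding. The motif was present in the window of Mmp3, which was measured on every array, and in those of 7 genes that were above background on none.

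**Figure D1:**
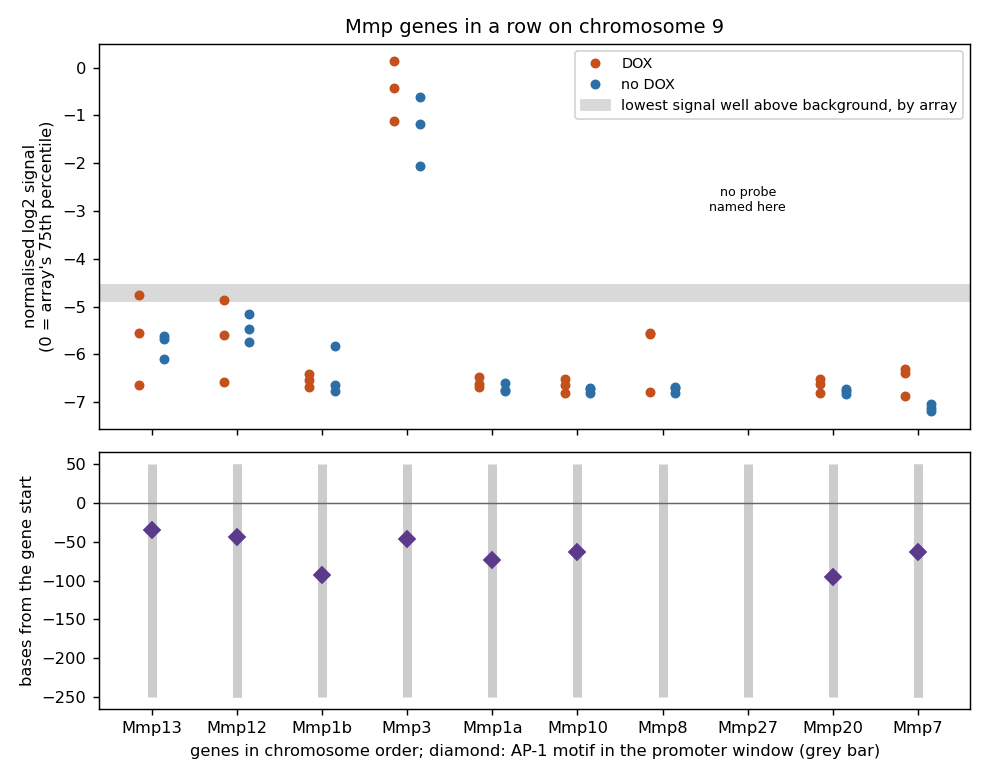
Upper panel, normalised log2 signal of each array for the Mmp genes in chromosome order (DOX left, no DOX right of each gene; the brighter probe where a gene has more than 1). Lower panel, distance in bases from the gene start to the AP-1 motif (diamonds) within the promoter window (grey bars); Mmp3 is the only gene here whose points lie above the grey band of lowest detected signals, while 8 genes carry the motif.

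No member changed past the test. Of the 45 genes, 21 were tested, that is, detected well above background throughout the DOX group, the no DOX group or both. By limma with Benjamini-Hochberg adjustment over the 30933 tested probes, 0 members rose and 0 fell (threshold 0.05). Of everything tested (26256 genes and unnamed probes), 0.404% passed, 0.278% as rises and 0.126% as falls. At an unadjusted p under 0.05 there were 2 of 21 members, against 18.6% of everything tested. The 3 DOX values lay wholly on 1 side of the 3 no DOX values for 2 of 21 members, both with DOX below, where 25.3% of everything tested had such values and 12.6% with DOX below. The DOX mean was the higher for 7 of the 21 genes and the lower for 14. Their median log2 change was -0.17 (quartiles -0.29 and 0.08), beside -0.01 (quartiles -0.19 and 0.17) over everything tested. The members' median was -0.01 with no filter on dim probes (45 genes), beside 0.07 over everything without that filter. It was -0.09 with normexp and between -0.25 and -0.08 when 1 array was left out. The ends of that range were without DOX replicate 2 and without DOX replicate 3, and the median was -0.10 without no DOX replicate 1. Adamts13 and Adamts17, the 2 genes behind both counts of 2, passed the filter only through the no DOX group. Both are also among the 14 genes with the lower DOX mean. Over the 19 members well above background on all 6 arrays, the median was -0.12, beside -0.001 over everything filtered in that way. The 95% interval of the fold change lay within 0.5 to 2 for 18 of the 21 genes, the exceptions being Mmp3, Adamts13 and Adamts17. On simulated arrays with the spreads of this comparison, 200 of the 30933 probes were altered. A log2 change of 1 was recovered for 42% of the altered probes and a change of 0.5 for 0%. These shares hold for that setting, since the adjustment depends on how many probes change and detection on each probe's spread.

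**Figure D2:**
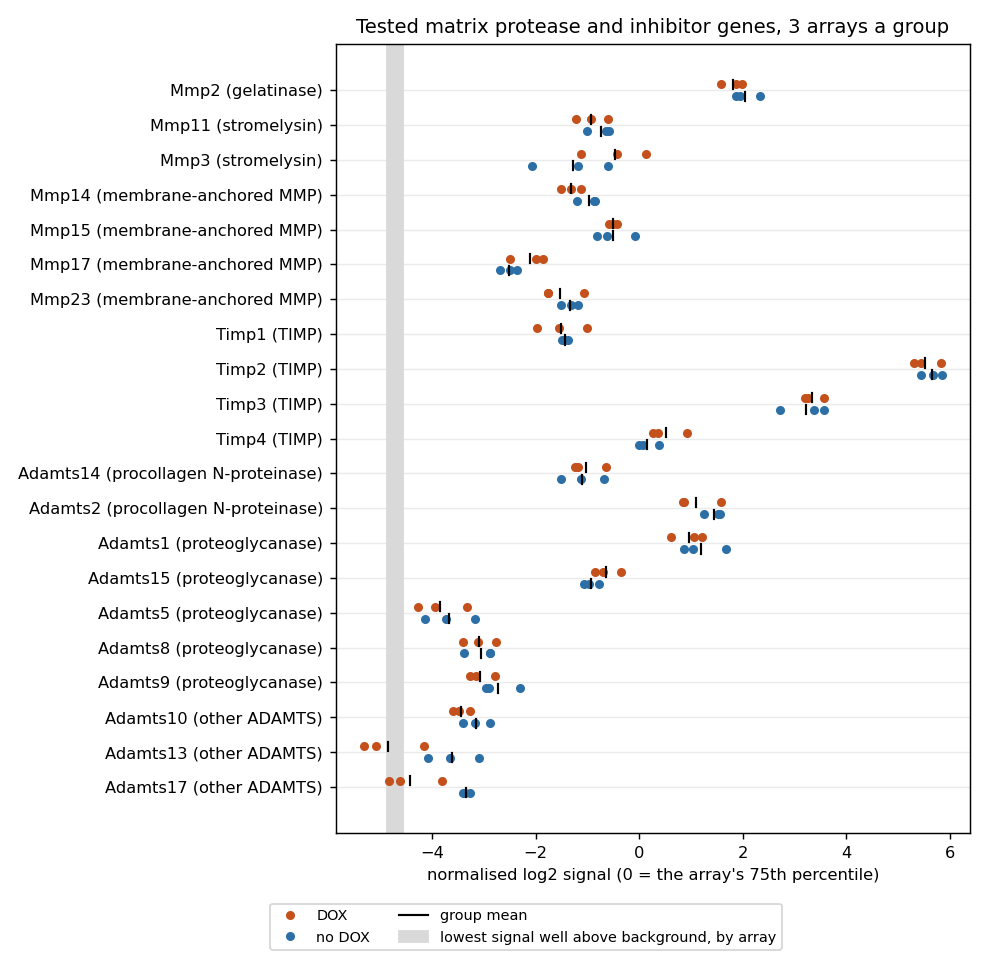
Normalised log2 signal of the 21 tested genes on each array (points; DOX above no DOX in each row), with group means (bars) and the range of the lowest signal well above background (grey band). The groups overlap in every row but Adamts13 and Adamts17; levels are to be read within a row, since probes differ in brightness.

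Mmp3, a stromelysin that cuts proteoglycans and activates other metalloproteinases, had the widest spread within groups of the 21 members (pooled SD 0.68). Mmp3 measured 0.13, -0.43 and -1.13 in DOX tongues, against -1.18, -2.06 and -0.61 in no DOX tongues. Replicate 1 was the highest of the DOX arrays, as it was for the mean level of the neutrophil list described with the collagenases. The stratified epithelium list was also highest there (mean level 7.38, against 7.07 and 7.03 on DOX replicates 2 and 3). The part of these cell types in Mmp3 was not tested. No DOX replicate 2 was the lowest of its group, and the groups overlapped. The mean was 1.75-fold higher with DOX (log2 0.81 ± 0.44, SE; adjusted p = 0.379), with a 95% interval from 0.838-fold to 3.66-fold. Mmp11, stromelysin-3, is activated inside the cell by furin and was read by 2 probes. Its brighter probe measured -0.93, -0.61 and -1.23 with DOX and -0.64, -0.59 and -1.01 without. Its other probe measured -1.76, -1.56 and -2.11 with DOX and -1.74, -1.65 and -1.83 without. The groups of both Mmp11 probes overlapped, with changes of -0.18 ± 0.20 for the brighter and -0.07 ± 0.16 for the other (SE). Mmp10, stromelysin-2, was above background on no array.

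Of the gelatinases, which degrade denatured collagen and basement membrane collagen, Mmp2 was measured on every array. Mmp2 stood at 1.58, 1.99 and 1.86 in DOX tongues and at 1.88, 1.95 and 2.32 in no DOX tongues. These groups overlapped, and the change of -0.24 ± 0.17 (SE, adjusted p = 0.501) did not pass. Mmp9, a gelatinase stored in neutrophils, was above background on no array, with levels between -6.43 and -5.30 with DOX and between -5.13 and -4.83 without.

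None of the 4 genes grouped here as collagenases (Mmp1a, Mmp1b, Mmp8 and Mmp13) was tested. Mmp13 lay between -6.64 and -4.77 in DOX tongues and between -6.09 and -5.61 in no DOX tongues, and Mmp8, the neutrophil collagenase, between -6.77 and -5.56 with DOX and between -6.81 and -6.68 without. Both stayed at background on all 6 arrays, so no fold is given. Of the neutrophil markers 9 of 10 had a probe, 6 of these were well above background on all 6 arrays, and Ngp was above it on none. The neutrophil list's mean level was 0.47, -0.38 and -0.93 in DOX tongues, against -0.78, -0.95 and -0.38 in no DOX tongues. Its summed signal, in multiples of each array's 75th percentile, ran from 133.5 to 1246 with DOX and from 78.4 to 202.5 without, the highest value being DOX replicate 1. The sum was carried by S100a8 and S100a9, which reached 8.87 and 9.55 on that array. Of the 8 tested neutrophil markers none passed, and 5 had a higher DOX mean. Retnlg (-1.49 ± 0.72), Mpo (-0.62 ± 0.35) and Camp (-0.18 ± 0.24) had a lower one. Retnlg and Mpo, however, entered the tests only through the no DOX group. Each was well above background on 1 DOX array, so their fitted changes are not measured sizes. The matrilysin Mmp7 and the macrophage elastase Mmp12 were also above background on no array, while 6 of 8 macrophage markers were above it on all 6 and Cd163 on none. The macrophage list's mean level was -0.47, -0.26 and -0.72 with DOX and -0.97, -1.01 and -0.74 without. Its summed signal ran from 15.6 to 19.7 with DOX and from 15.1 to 15.8 without. The mean levels thus narrowly did not overlap, while the sums did. The macrophage marker Lyz2 was at 1.03 ± 0.17 (limma, adjusted p = 0.0704), Mrc1 alone had a lower DOX mean, and no tested marker of this list passed.

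Membrane-anchored metalloproteinases work at the cell surface, and 4 of 7 were tested. Mmp14, which cuts fibrillar collagen and activates the Mmp2 precursor together with Timp2, had the smallest pooled SD of the 21 members (0.20). It measured -1.51, -1.12 and -1.31 in DOX tongues, against -0.86, -1.20 and -0.87 in no DOX tongues. DOX replicate 2 lay above no DOX replicate 2, so the groups overlapped, and the mean was 0.792-fold that of no DOX (log2 -0.34 ± 0.15, SE; adjusted p = 0.299; 95% interval 0.614 to 1.02). Mmp17, held by a lipid anchor, measured -1.99, -1.86 and -2.49 with DOX and -2.49, -2.69 and -2.36 without. Its change of 0.40 ± 0.19 (SE) did not pass (adjusted p = 0.314), and DOX replicate 3 lay within the no DOX values. Mmp15 measured -0.58, -0.44 and -0.51 with DOX and -0.09, -0.63 and -0.82 without. The means of Mmp15 nearly coincided (log2 0.00 ± 0.20, SE), with a 95% interval from 0.725-fold to 1.39-fold. Mmp23, which lacks the haemopexin domain of most members, measured -1.77, -1.06 and -1.75 with DOX and -1.18, -1.50 and -1.32 without (log2 -0.19 ± 0.22, SE).

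All 4 TIMP genes were measured on every array, and none passed. Timp2, needed for Mmp2 activation at the cell surface, was read by 2 probes that differed in sign. The brighter probe measured 5.31, 5.82 and 5.44 in DOX tongues and 5.84, 5.67 and 5.43 in no DOX tongues (log2 -0.12 ± 0.18, SE). The other probe measured 2.18, 1.97 and 2.34 with DOX and 2.10, 1.87 and 1.78 without (0.24 ± 0.14), and the groups overlapped for both. Timp1, an inhibitor induced by cytokines, differed more among DOX arrays than among no DOX arrays. Timp1 measured -1.0, -1.56 and -1.98 with DOX (SD 0.49) and -1.48, -1.44 and -1.38 without (SD 0.05), with a change of -0.08 ± 0.24 (SE, adjusted p = 0.901). This difference in spread was not tested. Timp3, the inhibitor held in the matrix, measured 3.25, 3.56 and 3.19 with DOX and 3.57, 3.37 and 2.71 without (0.12 ± 0.24, SE). Timp4, best known from heart and muscle, measured 0.27, 0.93 and 0.37 with DOX and 0.07, 0.38 and 0.00 without. Its mean was 1.29-fold higher with DOX, with a 95% interval from 0.922-fold to 1.81-fold and an adjusted p = 0.379.

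**Figure D3:**
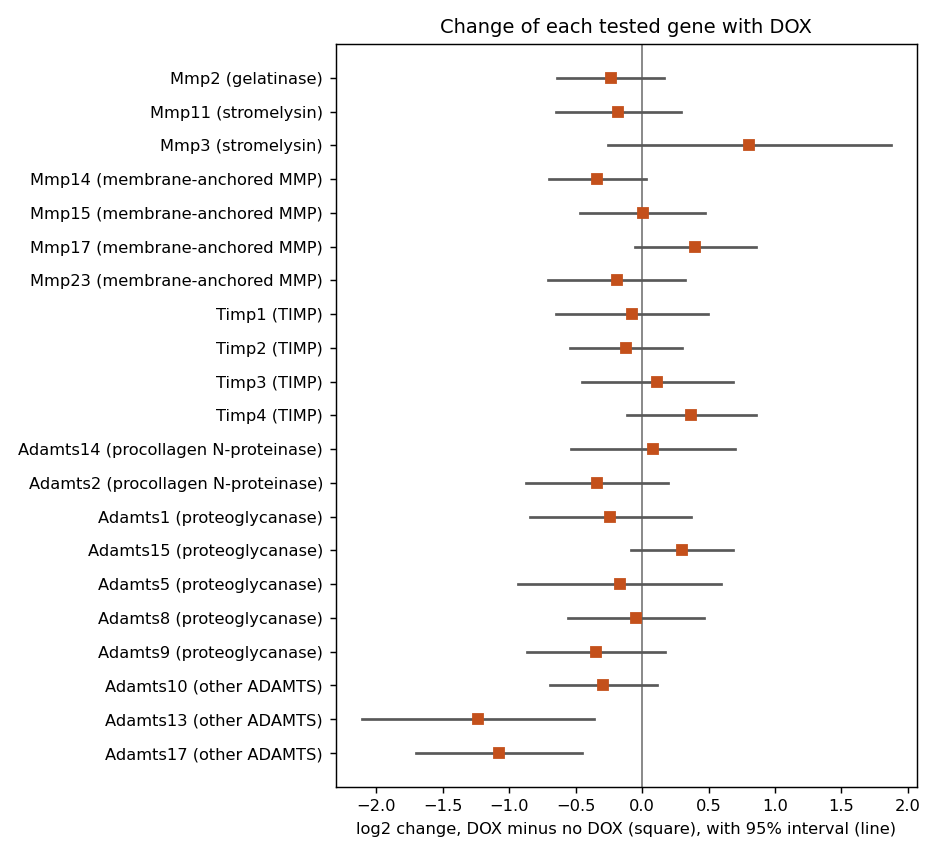
Log2 change (DOX minus no DOX) of the 21 tested genes with its 95% interval from limma, unadjusted for the number of genes. The intervals of Adamts13 and Adamts17 alone lie wholly on 1 side of 0, but neither gene passed after adjustment and both were well above background on only 1 DOX array.

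Of the 3 procollagen N-proteinases, which trim the ends of fibrillar procollagens, 2 were tested. Adamts2 measured 0.87, 1.59 and 0.85 in DOX tongues, against 1.51, 1.56 and 1.25 in no DOX tongues. DOX replicate 2 was above all no DOX arrays while the other DOX arrays were below them, and the change was -0.34 ± 0.22 (SE, adjusted p = 0.458). The brighter Adamts14 probe measured -1.19, -0.64 and -1.25 with DOX and -0.68, -1.52 and -1.13 without (0.08 ± 0.26, SE).

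The proteoglycanases among the ADAMTS enzymes cut aggrecan and versican, and 5 of 7 were tested. Adamts15 measured -0.86, -0.36 and -0.70 in DOX tongues and -0.96, -0.78 and -1.07 in no DOX tongues (log2 0.30 ± 0.16, SE; adjusted p = 0.362). Adamts9 measured -2.79, -3.26 and -3.16 with DOX and -2.31, -2.95 and -2.90 without (-0.35 ± 0.22; adjusted p = 0.440). Both genes had overlapping groups. Adamts1, induced in inflammation and ovulation, measured 1.05, 0.61 and 1.21 with DOX and 1.04, 0.87 and 1.68 without (-0.24 ± 0.25). Adamts5, a main aggrecanase of cartilage, had 2 probes that were both slightly lower with DOX. The brighter one measured -3.95, -3.32 and -4.26 with DOX and -3.17, -3.72 and -4.14 without (-0.17 ± 0.32), and the groups overlapped. The other measured -4.32, -3.62 and -3.91 with DOX and -3.39, -4.04 and -4.16 without (-0.08 ± 0.26), again with overlap. The 2 probes of Adamts8 differed in sign, the brighter at -0.04 ± 0.21 and the other at 0.42 ± 0.23.

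The members with the smallest p were a pair of dim ADAMTS genes that lay lower with DOX. Adamts17 and Adamts10 encode enzymes of fibrillin microfibrils, and Adamts13 cuts von Willebrand factor in plasma and is made mainly in liver. Adamts17 measured -4.62, -4.83 and -3.81 in DOX tongues, against -3.36, -3.41 and -3.26 in no DOX tongues. All 3 DOX values were below all 3 no DOX values, and 1 of the 3 DOX arrays, replicate 3, was well above background. Adamts17 entered the tests only through the no DOX group, so its fitted change of -1.08 ± 0.26 (SE, adjusted p = 0.120) sets measured values against a group mostly at background and is not a measured size. With normexp background correction it was -0.26. Without DOX replicate 3 it was -1.38 with an adjusted p = 0.0483 (limma), but neither remaining DOX array was then well above background, and this is not counted as a call. Its other probe was above background on no array. Adamts13 measured -5.31, -5.07 and -4.15 with DOX and -3.65, -3.10 and -4.08 without. DOX replicate 3, the only DOX array well above background, lay close to no DOX replicate 3. Adamts13 also entered only through the no DOX group, and the same limit holds for its fitted change of -1.23 ± 0.37 (SE, adjusted p = 0.161), which was -0.26 with normexp. The other Adamts13 probe was above background on no array. Adamts10 measured -3.60, -3.27 and -3.47 with DOX and -2.87, -3.18 and -3.41 without (-0.29 ± 0.17; adjusted p = 0.401).

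The remaining 24 genes were not tested. Of these, 19 were well above background on no array and 5 on 1 to 3 arrays (Adamts3, Adamts4, Adamts18, Mmp24 and Mmp25). The 34 untested probes lay between -7.18 and -1.75. Adamts3, a procollagen N-proteinase, measured -6.76, -1.75 and -6.51 in DOX tongues and -6.74, -6.13 and -6.67 in no DOX tongues. Mmp25, a leukocyte metalloproteinase, measured -5.38, -6.61 and -6.49 with DOX and -3.0, -6.27 and -6.71 without. In each of these genes a single array stood far above the other 5, DOX replicate 2 for Adamts3 and no DOX replicate 1 for Mmp25. The second Adamts14 probe was also untested, at -4.97, -4.17 and -5.39 with DOX and -6.50, -5.47 and -6.59 without.

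**Figure D4:**
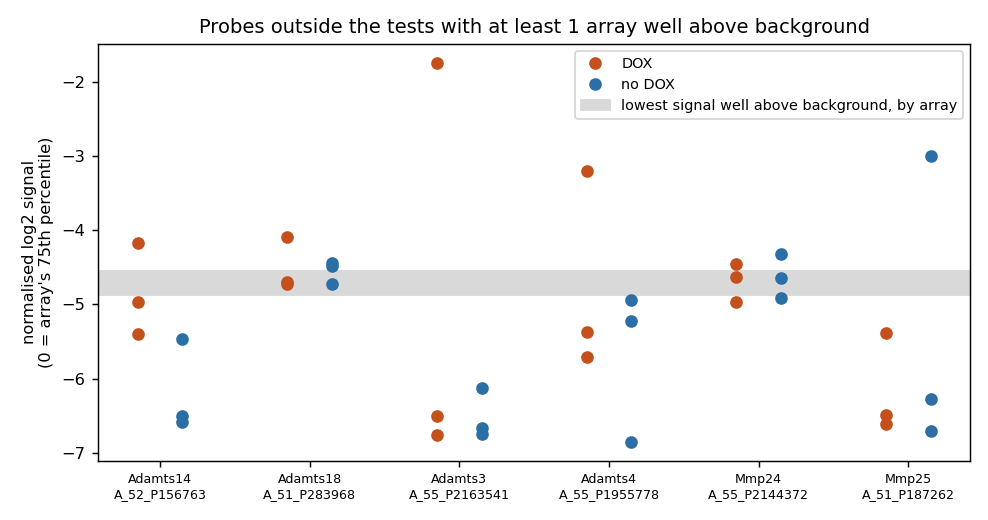
Normalised log2 signal on each array (points; DOX left, no DOX right) for the 6 member probes that were outside the tests but well above background on at least 1 array. The Adamts3 point at -1.75, the Adamts4 point at -3.20 and the Mmp25 point at -3.0 each come from 1 array.

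The arrays with high member levels were not of 1 group. No DOX replicate 1 held the highest value of 7 of the 21 tested members and DOX replicate 2 that of 6, while DOX replicate 1 held the lowest value of 7. The 6 fibroblast markers, all well above background on all 6 arrays, had mean levels of 2.81, 3.33 and 2.74 in DOX tongues and 3.18, 3.10 and 3.06 in no DOX tongues. Their summed signal ran from 120.6 to 185.2 with DOX and from 136.1 to 160.9 without. DOX replicate 2 was the highest and no DOX replicate 1 the next in this list as well. This was not particular to fibroblast markers. By mean level, DOX replicate 2 was also highest in the macrophage, mast cell, endothelium, adipocyte and salivary gland lists. In the Schwann cell list no DOX replicate 1 was highest and DOX replicate 2 the next. The skeletal muscle, stratified epithelium, neutrophil and T cell lists had another array highest. The T cell list had lower mean levels with DOX (-0.64, -0.93 and -0.87, against -0.30, -0.25 and -0.21), without overlap. Its summed signal was higher with DOX (6.77 to 7.45, against 5.71 to 6.71). Its marker Cd8a passed the test (-1.94 ± 0.20; limma, adjusted p = 0.0241) but was well above background on 0 DOX arrays, so this is not a measured size. The salivary gland list, of which 7 of 8 markers had a probe, none of them at background on every array, had mean levels of 3.40, 3.88 and 3.29 with DOX and 2.59, -0.16 and 2.49 without. Its summed signal ran from 633.9 to 1106 with DOX and from 79.2 to 341.2 without, so that the groups did not overlap. In DOX tongues the sum was carried mainly by Amy1 and Bpifa2. The markers disagreed, since Klk1 (-4.22 ± 1.92) and Smgc (-0.60 ± 0.37) had a lower DOX mean and the other 5 a higher one. None passed the test, and Car6, among those 5, was well above background on only 2 no DOX arrays. The part of these cell types in the members' values was not tested, and in whole tissue fewer cells of a type and less RNA per cell cannot be told apart.

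Lists of genes that act with the members gave no call in either direction. Of 15 tested activators and cell-surface partners, 0 passed and 5 had an unadjusted p under 0.05, as did 1 of 13 inhibitors and clearance genes, 2 of 13 related metzincins and 4 of 12 matrix substrates, beside 18.6% of everything tested. The lysosomal protease gene Ctsl measured 5.19, 5.20 and 5.36 in DOX tongues, against 4.88, 4.83 and 4.77 in no DOX tongues, a change of 0.43 ± 0.10 (SE, adjusted p = 0.118). All DOX values of Ctsl were above all no DOX values. Fap, a protease of activated fibroblasts, was at -0.67 ± 0.20 and the plasminogen activator gene Plat at -0.49 ± 0.16, both with DOX below and neither past the test. Of 13 inhibitors and clearance genes 0 passed. The clearance receptor gene Lrp1 was at -0.33 ± 0.11, the serine protease inhibitor gene Slpi at 0.25 ± 0.12 and the proteoglycan gene Spock2 at 0.48 ± 0.27. Of 13 genes listed as related metzincins, that is, zinc proteases and relatives not all of which are proteases, 0 passed. Adamtsl4 was at 0.52 ± 0.18, Adamtsl1 at -0.36 ± 0.13 and the sheddase gene Adam10 at -0.20 ± 0.12.

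Of 12 tested matrix substrates 0 passed, 9 lay lower with DOX and 3 higher, and the list's median change was -0.32, beside -0.01 over everything tested. The collagen gene Col3a1 measured 1.56, 2.67 and 1.85 in DOX tongues, against 3.44, 3.23 and 2.99 in no DOX tongues. The DOX values of Col3a1 were all below the no DOX values, with a change of -1.19 ± 0.29 (SE, adjusted p = 0.122). The fibrillin gene Fbn1 was at -0.75 ± 0.24 (adjusted p = 0.182) and the fibronectin gene Fn1 at -0.55 ± 0.20 (adjusted p = 0.221).

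**Figure D5:**
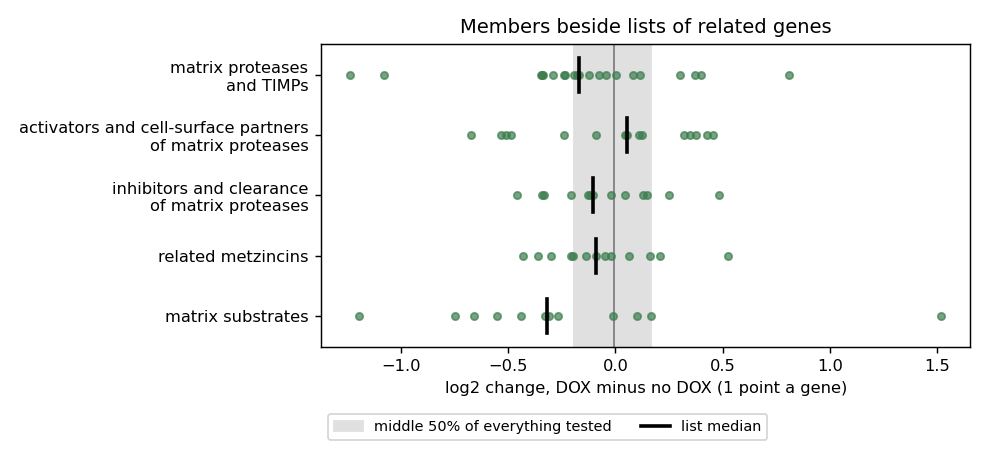
Log2 change (DOX minus no DOX) of each tested gene in the protease and TIMP families and in 4 lists of related genes (points), with list medians (bars) and the middle 50% of everything tested (grey). The median is -0.17 for the families and -0.32 for the matrix substrates, against -0.01 for everything tested. The families include Adamts13 and Adamts17, which passed the filter only through the no DOX group.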

How the data were processed

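The deposited scanner files hold signal intensity per spot on a linear scale, with background subtracted in the processed signal, as exported from the scanner software (Agilent Feature Extraction, version 11.5.1.1, according to the headers). The deposited series table equals that intensity times 1 factor per array (3.70 to 3.99). Its column medians were 90.01, 97.5 and 93.7 for DOX and 102.5, 94.2 and 92.7 for no DOX replicates 1 to 3. How the factors were set is unknown here. Groups came from the treatment label. The 6 arrays shared 1 slide and 1 scan.

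From each array 146 to 195 outlier spots were left out, log2 signal was averaged per probe, and the array's 75th percentile was subtracted. Probes were named by accession through RefSeq (GRCm38.p6), which gave 1 symbol for 28331 probes and none for 27350. Probes well above background on all 3 arrays of a group were tested with limma 3.58.1 (R 4.3.3), using two-sided moderated statistics from eBayes and Benjamini-Hochberg adjustment. The probe with the highest mean stood for a gene. The fit was checked on simulated arrays. Values in every sample are given for the 16 members with the smallest p, the first of each role group and all Timp genes, and related lists are given by up to 3 genes with the smallest p. Probes outside the tests, and Mmp15, Mmp9, Mmp13, Mmp8 and Adamts14, were described after their values were seen. Members and lists were chosen with earlier results of these data known. The labels describe separate mice. The number of arrays limits the precision.

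The fit was repeated with other background correction, scaling, filters, thresholds and probe rules, on the deposited table, with trend, weights or the replicate number in the model, and without each array. Normexp used the median signal, since no mean signal column was used here.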

Additional observations from a re-analysis of the deposited data

Results flagged for a closer look

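In 4 probes outside the tests, signal was well above background on 1 DOX array and on no array without DOX. The highest DOX values were -1.75 for Adamts3 (replicate 2), -3.20 for Adamts4 (replicate 1), -4.17 for the second Adamts14 probe (replicate 2) and -4.10 for Adamts18 (replicate 2), on the log2 scale relative to the array's 75th percentile. The other DOX values of Adamts4 were -5.71 and -5.37, against -4.94, -5.22 and -6.85 without DOX, and those of Adamts18 were -4.69 and -4.73, against -4.48, -4.73 and -4.45 without DOX. Each of these signals rests on 1 mouse.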

How the results depend on the processing

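The count of 0 members past the threshold held under all alternatives but 1: without DOX replicate 3 it was 1 (Adamts17, -1.38, with both remaining DOX arrays not well above background), so that leaving out an array gave 0 to 1. The members' median change of -0.17 was negative throughout but moved by over 1.5 times. It was -0.01 with no filter on dim probes (0.07 over everything there) and -0.12 over the 19 members well above background on all 6 arrays. With normexp it was -0.09, and it was -0.25 to -0.08 when 1 array was left out. The difference in Dek stayed positive without passing. The count over everything tested (106) was 246 with normexp (offset 50), 1 with no filter on dim probes, 192 with eBayes trend and robust settings, 484 with array weights, 747 at an adjusted p under 0.1, and 0 to 48 when 1 array was left out, with the tested probes kept. With the replicate number as a block it was 0. Same-numbered arrays did not deviate together (r = -0.11, -0.01 and 0.01 for replicates 1 to 3). With 3 arrays a group this cannot show whether the numbers pair the mice. No member passed under the block. Of 355 member values under the alternatives, 334 kept direction and call, and 8 genes, all uncalled, changed direction in 20. Mmp15 was at -0.026 with normexp, -0.003 with quantile normalization, -0.0401 with the deposited table and -0.0079 with array weights. Timp1 was at 0.054 with array weights. With the mean over tested probes, Adamts8 was at 0.19 and Timp2 at 0.059. Leaving out an array gave -0.40 to 0.0004 for Adamts1, -0.12 to 0.30 for Adamts14, -0.43 to 0.085 for Adamts5, -0.21 to 0.11 for Adamts8, -0.15 to 0.21 for Mmp15, -0.33 to 0.15 for Timp1 and -0.14 to 0.29 for Timp3. The cause of these changes was not tested. Slide and scan could not be used as a block, since there was 1 of each. Position on the slide went in part with treatment. All no DOX arrays and DOX replicate 1 lay in row 1, and DOX replicates 2 and 3 in row 2. The part of position was not tested. Signal near background limits Adamts13, Adamts17 and all untested members. Changes of other dim tested members were smaller with normexp too: 0.20 for Mmp17, -0.15 for Adamts9, -0.12 for Adamts10 and -0.08 for Adamts5. This was not particular to dim members, since brighter ones also had smaller changes with normexp. Among these were Mmp3 (0.52), Timp4 (0.30) and Mmp14 (-0.23). Those of Mmp2 (-0.24), Timp2 (-0.14) and Mmp15 were not smaller in size.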
